A study of Mus musculus with 19 samples.

Results

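Heart RNA was compared between male mice that carried a dysbiotic gut microbiome and male mice that carried a normal one. All mice of the series were C57BL/6NTac wild-type animals born germ-free, aged 2 months, whose gut was colonised by faecal transplantation. Donors of the dysbiotic microbiome were Il10-/- mice, which lack the anti-inflammatory cytokine interleukin 10, and donors of the normal microbiome were wild-type mice. The comparison was chosen by the sex and microbiome written in the library names, which gave 9 of the 19 hearts: 4 normal males and 5 dysbiotic males. The 10 female hearts (5 normal and 5 dysbiotic) entered the estimate of spread and served to test whether a male change differed from the female one. Each library came from a frozen piece of heart of 1 mouse and was made by poly(A) selection. All recipients, controls included, had been germ-free and had received a transplant, so no heart of a mouse with its native flora was part of the comparison.

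The gut microbiome reaches the heart through metabolites, microbial products in blood, immune signals and host hormones, among them the glucocorticoids of the adrenal gland. Heart muscle burns mainly fatty acids in its mitochondria, and the coactivator PGC-1α, encoded by Ppargc1a, drives the genes of that machinery together with nuclear receptors. A transcriptional clock runs in cardiomyocytes as well: CLOCK and BMAL1 activate the Per and Cry repressors, REV-ERBα (Nr1d1) represses Arntl, which encodes BMAL1, and the PAR-bZIP factors Dbp, Tef and Hlf carry the rhythm to output genes.

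Values are FPKM, fragments per kilobase of transcript, scaled to library size. Changes are log2 differences of FPKM + 1, dysbiotic minus normal, with their SE, and p-values come from limma, adjusted by Benjamini-Hochberg over 10866 genes that reached 1 FPKM in 4 or more hearts; all tests are two-sided. Depth estimated from the steps between low values was 17.7 M to 23.0 M fragments per male library. Only 19.9% to 23.1% of the low values were whole reads within 0.02, so this depth is uncertain. The labels name the cells cardiocytes, whereas the libraries held whole heart tissue: all 8 cardiomyocyte markers were above 0 in every male heart (summed FPKM 12895.8 to 17165.5), and so were all 8 endothelial markers (185.0 to 238.5) and the fibroblast markers (497.9 to 604.4). The strongest principal component among the males (55.0% of the variance of the 500 most variable genes) was led by Alb, Apoa2 and other transcripts of liver. Summed liver markers were 809.3 FPKM in normal replicate 1, 12.2 FPKM in dysbiotic replicate 5 and 74.1 to 389.0 FPKM in the other 7 male hearts. Dysbiotic replicate 5 also had the highest cardiomyocyte sum and the lowest share of FPKM from the mitochondrial genome (51.1%, against up to 57.4%). In bulk tissue fewer cells of a type and less RNA per cell cannot be told apart.

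With the dysbiotic microbiome 104 genes rose (0.957% of those tested) and 103 fell (0.948%), together 1.91%. The changes were small on the scale of FPKM + 1: their median absolute log2 change was 0.38 and the smallest was 0.17. The 10 changes past an absolute log2 change of 1 were all falls. Adding 1 FPKM shrinks changes of genes near 1 FPKM. Several named rises, such as Pirt, Ccn5, Lonrf1 and Mef2c, start near that level, so the lack of rises past 1 depends in part on this scale. In 181 of the 207 genes the 5 dysbiotic hearts lay wholly on one side of the 4 normal hearts, against 4.7% of all genes tested (511). The 207 genes were picked by the difference between these same hearts, so this share follows in part from their selection and adds no support. The largest named falls were in Scand1, Hspb1, Rgcc, Rnf144b, Chchd10 and Ppargc1a, and the largest named rises in Pirt, Ccn5, Mef2c, Mid1ip1, Lonrf1 and Lrrc3b. The number of calls depended on single hearts. It was 30 higher and 30 lower without normal replicate 2, 42 and 39 without normal replicate 3, 44 and 84 without normal replicate 4, 172 and 86 without normal replicate 1, 90 and 58 without dysbiotic replicate 1, 45 and 60 without dysbiotic replicate 2, and 68 and 66 without dysbiotic replicate 3; 50 of the 207 genes (23 higher, 27 lower) were called in all 9 such fits. A fit of the 9 male hearts alone called 22 higher and 47 lower, 65 of them among the 207 and leaving 25 of the 50 genes named by rule without a call, and median-ratio scaling called 124 higher and 173 lower. In males alone the named rises without a call were Ccn5, Mef2c, Mid1ip1, Gpr22, Gja5, Tpst1, Slc25a42, Prox1 and Emcn. The named falls without a call were Scand1, Hspb1, Rgcc, Chchd10, Ppargc1a, Ppp1r3c, Lrrc52, Cdkn1a, Cox11, Slc25a33, Mef2a, Col5a3, Foxo3, Tiparp, Eif2s3y and Lyve1. The highest adjusted p was that of Rgcc (0.2465).

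**Figure D1:**
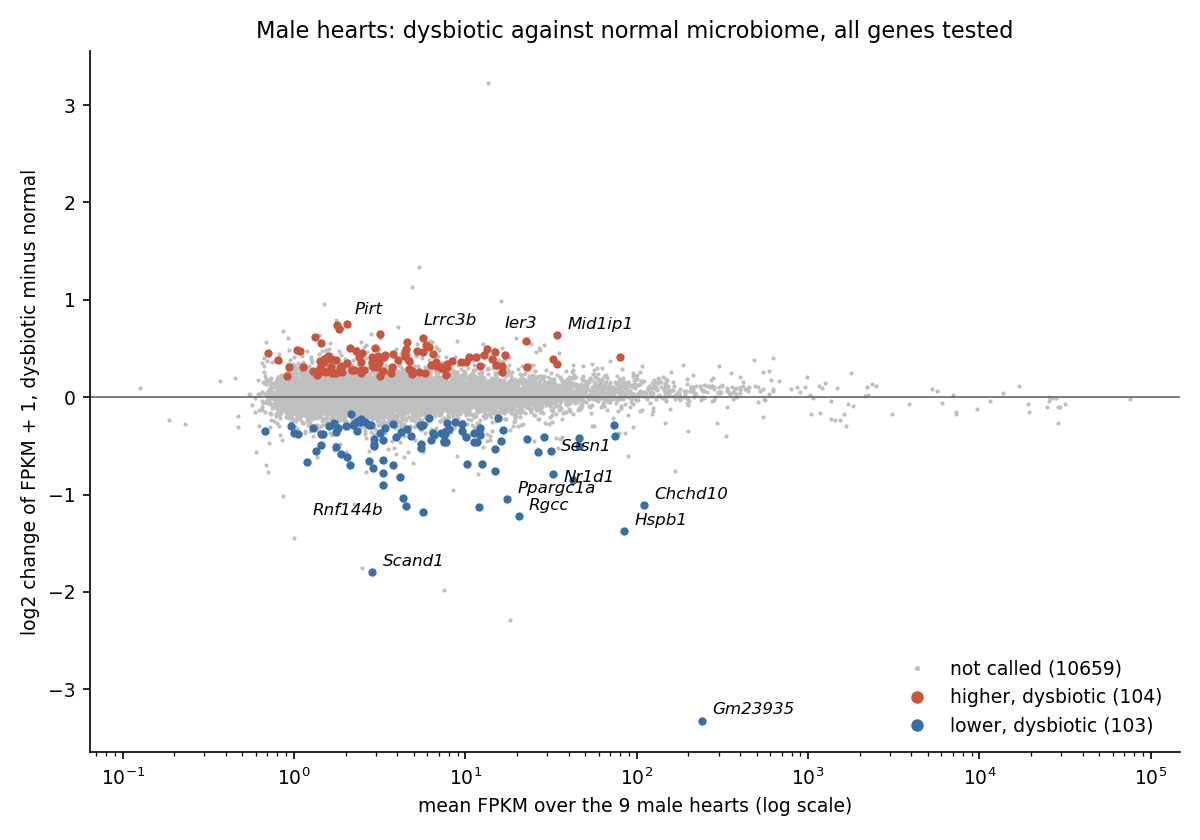
Each point is 1 of the genes tested, with its mean FPKM over the 9 male hearts on a log axis and its log2 change (FPKM + 1, dysbiotic minus normal) on the other. Red points are the 104 genes that rose and blue points the 103 that fell. On this scale falls reach further from 0 than rises, down to Scand1 and the short predicted gene Gm23935. The added 1 FPKM shrinks changes of genes near 1 FPKM.

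Ppargc1a, the gene of PGC-1α, was lower in every dysbiotic heart than in any normal one. It stood at 16.2, 38.1, 23.5 and 23.7 FPKM in normal replicates 1 to 4 and at 11.8, 10.7, 8.59, 13.6 and 12.1 FPKM in dysbiotic replicates 1 to 5. Normal replicate 1 was the lowest of its group and the dysbiotic hearts were tightly grouped. The change was -1.05 ± 0.19 (adjusted p = 0.0110), and it was called in all 9 fits that left out 1 heart; the fit of male hearts alone gave adjusted p = 0.0831. Of 15 tested PGC-1 and nuclear receptor regulators Ppargc1a was the 1 gene called, and the list's median change was -0.0090, against 0.021 over all genes tested. The oestrogen-related receptor gene Esrrg (-0.25 ± 0.07, adjusted p = 0.0670) and the fatty acid receptor gene Ppara (-0.38 ± 0.13, adjusted p = 0.145) did not pass.

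The genes that PGC-1α is known to drive were not called with it. Of 76 tested nuclear genes of oxidative phosphorylation 0 were called and 70 had a positive log2 change, with a median of 0.11. That median was 0.038 without dysbiotic replicate 5 and 0.083 after median-ratio scaling, which left 65 positive; over all genes tested 6385 of 10866 were positive, and 5368 after that scaling. Of 27 genes of fatty acid uptake and oxidation 0 were called (23 positive, median 0.073), and so were 0 of 13 genes of the mitochondrial genome (2 positive, median -0.066; -0.014 without dysbiotic replicate 5). Mitochondrial carriers moved separately: Slc25a33, a pyrimidine nucleotide carrier, fell from 9.24 ± 1.55 to 6.40 ± 0.39 FPKM (mean ± SD, adjusted p = 0.0330), and Slc25a42, a coenzyme A carrier, rose from 6.24 ± 0.73 to 7.90 ± 0.80 FPKM (adjusted p = 0.0386). Both were called in 3 of the 9 fits that left out 1 heart: Slc25a33 in those without normal replicate 3 or dysbiotic replicates 4 or 5 (adjusted p up to 0.110 in the others), and Slc25a42 in those without normal replicate 1 or dysbiotic replicates 1 or 3 (up to 0.149).

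Storage and use of glucose and fat gave single changes. Ppp1r3c, a subunit that targets protein phosphatase 1 to glycogen, fell from 57.4 ± 14.0 to 31.0 ± 5.27 FPKM (-0.85 ± 0.19, adjusted p = 0.0330), while its relative Ppp1r3d rose from 2.67 ± 0.30 to 3.97 ± 0.24 FPKM (0.44 ± 0.07, adjusted p = 0.00296). The other 27 of 29 tested genes of glucose and glycogen metabolism were not called. Mid1ip1, which promotes fatty acid synthesis through acetyl-CoA carboxylase, stood at 32.3, 19.6, 23.8 and 29.3 FPKM in the normal hearts and at 38.0, 43.8, 44.2, 35.1 and 42.7 FPKM in the dysbiotic hearts. The groups did not overlap and the rise was 0.63 ± 0.11 (adjusted p = 0.00608; 0.0625 in the fit of males alone). Pfkfb1, a bifunctional enzyme that sets fructose 2,6-bisphosphate, rose from 3.38 ± 0.51 to 5.52 ± 0.83 FPKM (adjusted p = 0.0208), and Cyp4b1, a cytochrome P450, from 10.7 ± 1.33 to 15.5 ± 1.16 FPKM (adjusted p = 0.00914). Ppp1r3c was not called without normal replicates 2 or 3 or dysbiotic replicates 1, 2, 4 or 5 (adjusted p 0.0520 to 0.136), and Pfkfb1 not without normal replicates 2 or 4 or dysbiotic replicate 2 (0.0605 to 0.107).

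**Figure D2:**
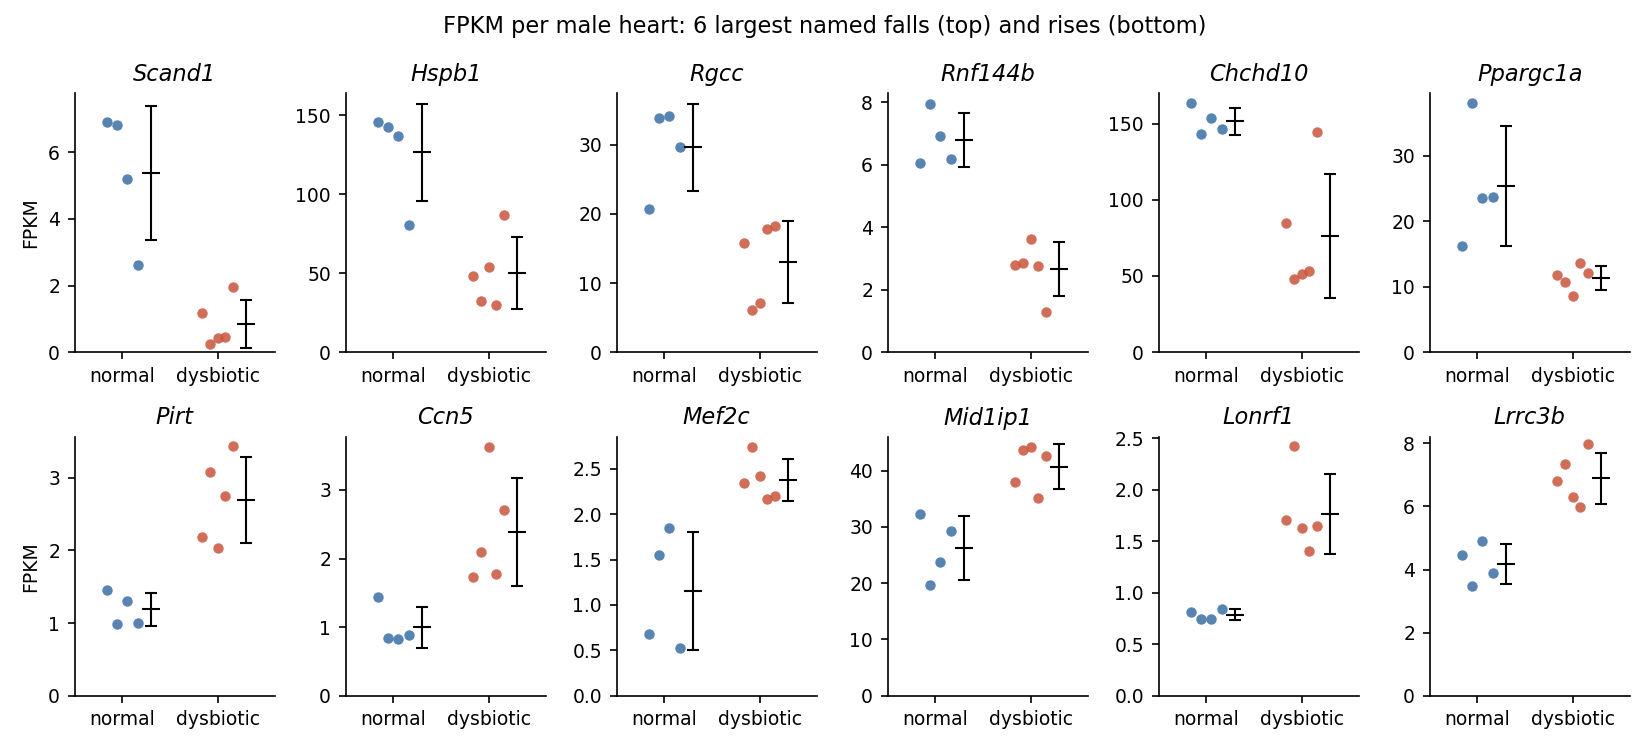
Each point is the FPKM of 1 male heart, in replicate order from left to right, for the 6 largest named falls (top row) and rises (bottom row); the bar beside each group is its mean ± SD. In Hspb1 and Chchd10 dysbiotic replicate 5 reaches the normal range, and in the other 10 genes the groups are apart.

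Clock genes moved in both directions. Of 17 tested members 5 rose and 3 fell, against 0.957% and 0.948% of all genes tested, and the median change was 0.20. Nr1d1, the repressor REV-ERBα, was 46.8, 42.3, 41.8 and 39.1 FPKM in the normal hearts and 23.9, 21.7, 27.9, 21.1 and 27.2 FPKM in the dysbiotic hearts, a wide gap. Its change was -0.78 ± 0.10 (adjusted p = 0.00163). Bhlhe40, a repressor of CLOCK and BMAL1, fell from 13.4 ± 0.36 to 9.44 ± 1.06 FPKM (adjusted p = 0.00249), and Clock itself fell from 2.00 ± 0.27 to 1.48 ± 0.08 FPKM (adjusted p = 0.0165). The repressor gene Per3 was 1.36, 0.587, 0.912 and 0.899 FPKM in the normal hearts and 1.78, 2.01, 1.46, 1.902 and 1.96 FPKM in the dysbiotic hearts. It rose by 0.55 ± 0.08 (adjusted p = 0.00249), and the groups did not overlap.

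The other rises were in the PAR-bZIP genes Hlf (0.41 ± 0.08) and Tef (0.33 ± 0.07) and in the repressor genes Cry1 (0.28 ± 0.07, called in 2 of 9 fits that left out 1 heart) and Cry2 (0.26 ± 0.05). Dbp, the remaining PAR-bZIP gene, was 12.4 ± 3.41 and 17.4 ± 3.50 FPKM (adjusted p = 0.164), and Nr1d2, the paralogue of Nr1d1, did not pass. Arntl lay below the expression filter and is named because its values were seen: it was 0.703, 0.950, 1.03 and 0.812 FPKM in the normal hearts and 0.304, 0.356, 0.373, 0.252 and 0.351 FPKM in the dysbiotic hearts. The groups did not overlap, and in the fit without an expression filter its change was -0.50 ± 0.05 (adjusted p = 0.000624). Nr1d1, Bhlhe40 and Per3 were called in all 9 fits that left out 1 heart. Over the whole list the calls ran from 6 higher and 3 lower without normal replicate 1 to 1 higher and 2 lower without normal replicate 2, with 3 higher and 2 lower without normal replicate 3. The labels give no hour of collection.

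The D-box, TTATGTAA, is the site bound by the PAR-bZIP factors. On either strand it lay within 250 bases upstream of the start in 2 of the 72 higher genes with a RefSeq promoter (2.78%; Per3 and Coq10b), in 0 of the 88 lower genes and in 0.543% of 7919 tested genes. Per3 held it at 2 places, and its promoter is shown for that reason, from chr4:151044816-151044915 on the minus strand of GRCm38.p6 (RefSeq), 5′ to 3′ with both matches in capitals.
Per3: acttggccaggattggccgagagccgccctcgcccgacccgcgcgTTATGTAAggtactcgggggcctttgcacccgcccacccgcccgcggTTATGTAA
The E-box CACGTG, the site of CLOCK and BMAL1, lay in 9.72% of the higher, 13.6% of the lower and 10.2% of the tested promoters.

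Genes known to be induced by glucocorticoids fell where they were called. Of 19 tested, the receptor gene Nr3c1 among them, 4 fell and 0 rose, against 0.948% and 0.957% of all genes tested. The median change was -0.18. Klf9, an early glucocorticoid receptor target, fell from 26.8 ± 1.69 to 19.7 ± 1.04 FPKM (-0.43 ± 0.06, adjusted p = 0.00249). Klf15, a regulator of cardiac lipid and amino acid metabolism, fell from 19.2 ± 1.25 to 13.8 ± 0.90 FPKM (adjusted p = 0.0130; 0.0548 without normal replicate 3). Cdkn1a, the cell cycle inhibitor p21, was 14.1 to 24.5 FPKM in the normal hearts and 9.23 to 15.4 FPKM in the dysbiotic hearts (-0.76 ± 0.15, adjusted p = 0.0121; 0.0590 and 0.0513 without normal replicates 2 and 3, and 0.130 in the fit of males alone). Dysbiotic replicate 3, at 15.4 FPKM, was the heart that overlapped the normal range. Cebpd, a bZIP factor of acute-phase and stress responses, fell as well (-0.70 ± 0.15, adjusted p = 0.0185), and its change differed from that in females (0.30; adjusted p = 0.0329). Other members did not pass: Zbtb16 was 11.9 ± 0.89 and 5.76 ± 1.43 FPKM (adjusted p = 0.0705), the changes of Fkbp5 and Tsc22d3, 2 classical targets, were -0.044 ± 0.14 and -0.14 ± 0.11, and the receptor gene Nr3c1 was 4.94 ± 0.36 and 5.98 ± 0.61 FPKM (adjusted p = 0.0972). The 4 calls became 1 without normal replicate 3 and 2 without normal replicate 2.

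Promoters of the genes that fell were read for the glucocorticoid response element, an inverted repeat of the half-sites GNACA and TGTNC held apart by 3 bases, on both strands. It lay within 250 bases upstream of the start in 5 of 88 lower genes (5.68%), 0 of 72 higher genes, 0.366% of 7919 tested genes and 0.387% of 32851 promoters in all. The 5 genes are Fam107a, an actin-binding stress-response protein; Map3k6, a kinase of the stress-activated MAP kinase pathway; Slc10a6, a transporter of sulphated steroids; Tinagl1, a matricellular basement membrane protein; and Trim63, the muscle ubiquitin ligase MuRF1. They are printed because the element is what they share, 5′ to 3′ on the gene's strand, with the match in capitals. Windows are chr14:8309841-8309940 (minus strand), chr4:133240594-133240693 (plus), chr5:103629510-103629609 (minus), chr4:130174893-130174992 (minus) and chr4:134314870-134314969 (plus) of GRCm38.p6, from RefSeq. A match is a run of letters and was not shown to be bound. Other motifs were searched as well. The heat shock element GAANNTTC lay in 5.7% of the lower and 5.9% of the tested promoters. The cyclic AMP element TGACGTCA lay in 4.5% and 3.0%, and the amino acid response element TGATGNAA in 4.5% and 2.4%. Of the motifs searched, the glucocorticoid element was the one whose share in lower genes most exceeded that in tested genes. That share rests on 5 genes, and the motifs were chosen with earlier results of these data known. It is therefore no independent evidence, and a role of glucocorticoids was not tested. Klf9, Klf15, Cdkn1a and Cebpd, the called genes of the glucocorticoid list, are not among the 5 genes.
Fam107a: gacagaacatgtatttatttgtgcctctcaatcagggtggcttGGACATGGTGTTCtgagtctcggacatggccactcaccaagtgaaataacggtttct
Map3k6: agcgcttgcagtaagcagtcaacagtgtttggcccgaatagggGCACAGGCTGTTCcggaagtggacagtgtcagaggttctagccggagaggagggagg
Slc10a6: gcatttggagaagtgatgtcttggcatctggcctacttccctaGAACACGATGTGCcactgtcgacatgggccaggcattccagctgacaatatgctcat
Tinagl1: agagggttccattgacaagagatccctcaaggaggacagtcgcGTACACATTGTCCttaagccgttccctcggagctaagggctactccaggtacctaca
Trim63: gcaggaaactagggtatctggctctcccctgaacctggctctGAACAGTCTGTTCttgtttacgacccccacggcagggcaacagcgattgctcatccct
Fam107a was 5.23 to 7.57 FPKM in the normal and 2.10 to 3.76 FPKM in the dysbiotic hearts (-1.03 ± 0.20, adjusted p = 0.0124), and Map3k6 was 5.21 to 6.48 and 2.02 to 3.66 FPKM (-0.82 ± 0.17, adjusted p = 0.0173). Neither group overlapped. The change was -0.61 in Slc10a6 (adjusted p = 0.00580) and -0.33 in Tinagl1 (adjusted p = 0.0487, called in 3 of 9 fits that left out 1 heart). Fam107a and Map3k6 were not called without normal replicate 2 (adjusted p = 0.0590 and 0.0670) or without normal replicate 3 (0.0544 and 0.0648).

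Genes of muscle protein breakdown and of the insulin-FOXO axis fell where they were called. Of 25 tested, 3 fell and 0 rose, against 0.948% and 0.957% of all genes tested. A positive change was seen in 7 of the 25, and the median was -0.13. That median was -0.058 without normal replicate 1 and dysbiotic replicate 5, the hearts highest and lowest in liver transcripts. Trim63, whose promoter is printed above, was 49.9, 59.7, 55.3 and 56.5 FPKM in the normal hearts and 34.8, 42.1, 41.4, 38.6 and 37.4 FPKM in the dysbiotic hearts. The groups were well apart (-0.50 ± 0.10, adjusted p = 0.0121; 0.0590 without normal replicate 2). Sesn1, a FOXO and p53 target that restrains mTORC1, fell from 38.3 ± 1.83 to 25.9 ± 2.24 FPKM (-0.55 ± 0.11, adjusted p = 0.0118) and was called in all 9 fits that left out 1 heart. Foxo3, a transcription factor that drives atrophy genes, fell from 14.1 ± 0.47 to 10.7 ± 1.37 FPKM (-0.38 ± 0.10, adjusted p = 0.0431). Its call held in 1 of the 9 such fits, that without dysbiotic replicate 4, with adjusted p 0.0526 to 0.133 in the other 8. Fbxo32, the second muscle-specific ubiquitin ligase, had a change of -0.13 ± 0.10 and did not pass.

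**Figure D3:**
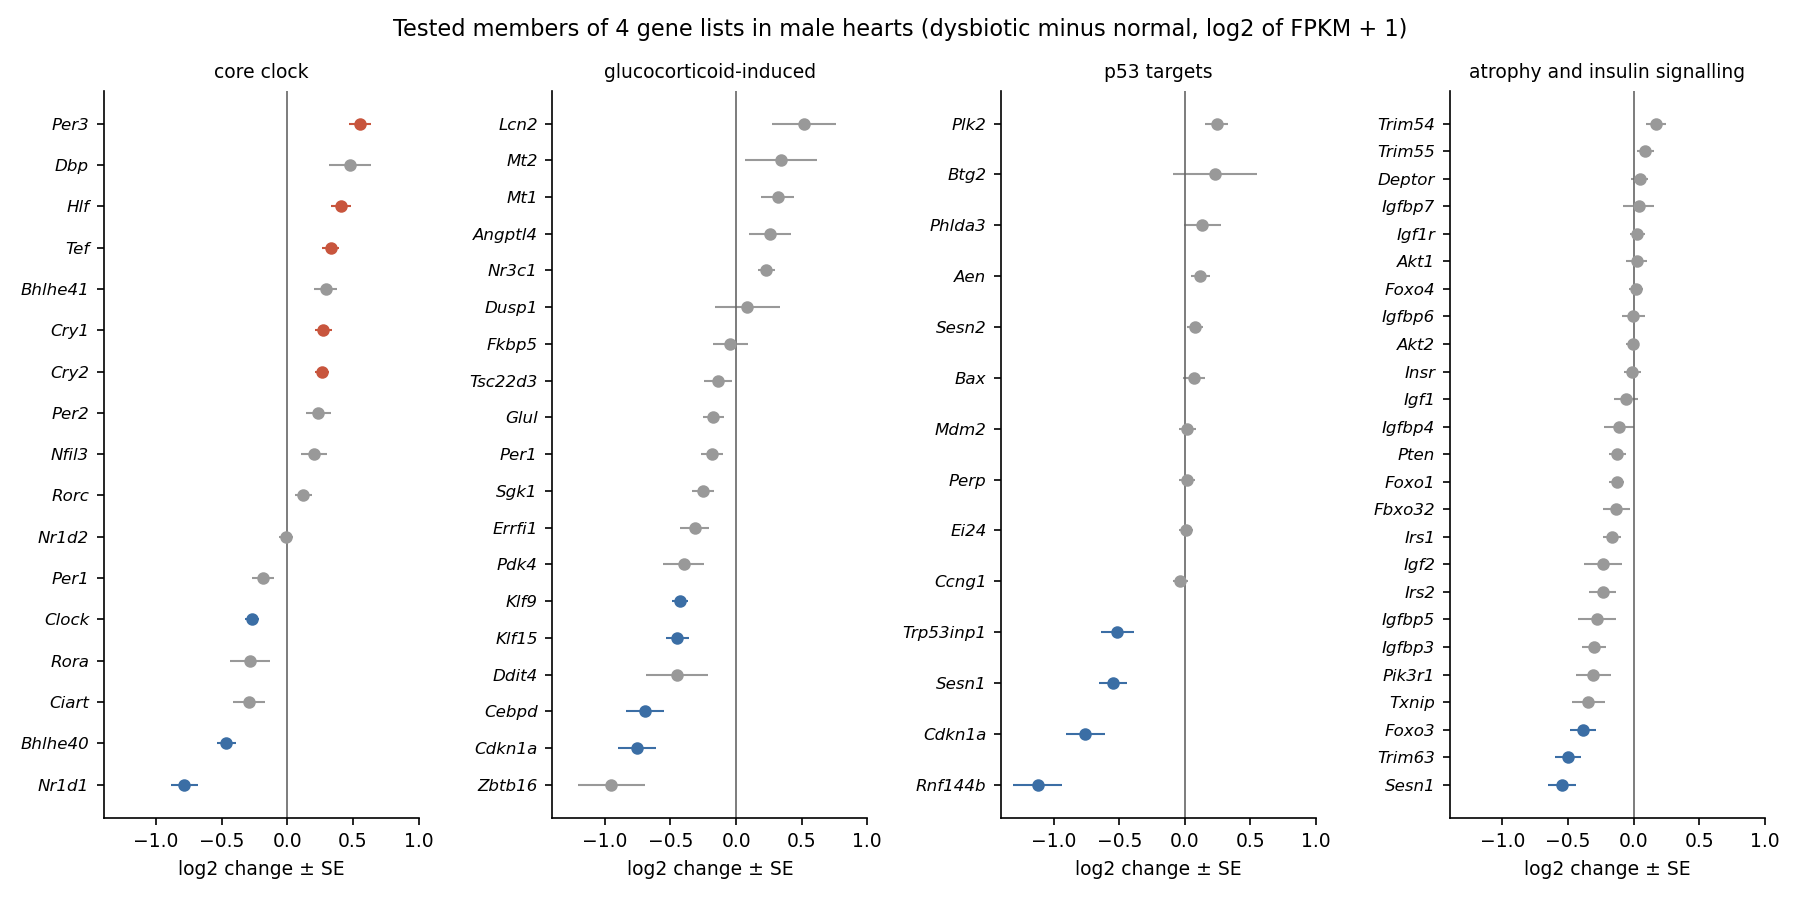
Each point is the log2 change of 1 tested gene (FPKM + 1, dysbiotic minus normal, ± SE) in males, in red where it rose, blue where it fell and grey where it was not called. Clock genes lie on both sides of 0, and all called genes of the other 3 lists lie below 0.

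Of 14 tested p53 targets 4 fell and 0 rose, against 0.948% and 0.957% of all genes tested, though the median of the list was 0.018. Cdkn1a is counted in the glucocorticoid list as well and Sesn1 in that of muscle protein breakdown, so these lists share calls. Rnf144b, a ubiquitin ligase, was 6.07, 7.95, 6.93 and 6.200 FPKM in the normal hearts and 2.79, 2.85, 3.63, 2.75 and 1.27 FPKM in the dysbiotic hearts. The highest dysbiotic heart stood well under the lowest normal one, and the change was -1.12 ± 0.19 (adjusted p = 0.00580). Besides Cdkn1a and Sesn1, Trp53inp1, an autophagy and stress protein, fell from 2.32 ± 0.44 to 1.31 ± 0.16 FPKM (adjusted p = 0.0424; called in 2 of 9 fits that left out 1 heart). The common p53 targets Mdm2, at 6.86 ± 0.30 and 6.98 ± 0.57 FPKM, Ccng1, at 181.2 ± 14.2 and 176.8 ± 8.70 FPKM, and Bax, at 5.37 ± 0.45 and 5.71 ± 0.85 FPKM, did not pass. Chac1, a glutathione-degrading enzyme of the integrated stress response, fell from 3.67 ± 0.22 to 1.97 ± 0.34 FPKM (-0.66 ± 0.12, adjusted p = 0.00636), the 1 gene called among 14 of that response.

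Of 36 tested genes of cardiac excitation 3 rose and 0 fell, against 0.957% and 0.948% of all genes tested. The median of the list was -0.023, and median-ratio scaling called 3 higher and 2 lower. Irx4, a transcription factor of ventricular muscle, rose from 4.73 ± 0.63 to 7.18 ± 0.90 FPKM (0.51 ± 0.09, adjusted p = 0.00757). Cacnb2, the β2 subunit of the L-type calcium channel, rose from 1.91 ± 0.27 to 2.99 ± 0.33 FPKM (0.45 ± 0.07, adjusted p = 0.00249). Gja5, connexin 40 of atrium and conduction system, was 1.26 to 1.91 FPKM in the normal and 1.92 to 3.75 FPKM in the dysbiotic hearts (0.50 ± 0.12, adjusted p = 0.0330). The highest Gja5 value belonged to dysbiotic replicate 3, which also had the highest sum of atrial markers of the male hearts (4242.3 FPKM). Over all 6 atrial markers the sums were 1415.8 to 3540.9 FPKM in the normal and 2083.2 to 4242.3 FPKM in the dysbiotic group, and their part in Gja5 was not tested. Gja5 was called in 3 of 9 fits that left out 1 heart, those without normal replicate 1 or dysbiotic replicates 4 or 5 (adjusted p 0.0533 to 0.136 in the other 6), whereas Irx4 and Cacnb2 were called in all 9.

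Among 16 tested transcription factors of the cardiac lineage 2 rose and 1 fell, against 0.957% and 0.948% of all genes tested. Mef2c, a myocyte enhancer factor, was 0.678, 1.55, 1.85 and 0.527 FPKM in the normal hearts, which fell into 2 pairs, and 2.35, 2.74, 2.42, 2.17 and 2.20 FPKM in the dysbiotic hearts, all of them above the normal range. The change was 0.70 ± 0.13 (adjusted p = 0.0118; 0.142 in the fit of males alone). Its relative Mef2a fell, from 6.72 ± 0.34 to 5.64 ± 0.45 FPKM (adjusted p = 0.0350), and Prox1 rose from 3.30 ± 0.40 to 4.64 ± 0.75 FPKM (adjusted p = 0.0341). Gpr22, an orphan receptor of heart muscle, rose from 4.56 ± 0.92 to 7.02 ± 1.06 FPKM (adjusted p = 0.0216), the 1 call among 21 cardiac receptor and cyclic AMP genes. Without normal replicate 2 these 3 genes had adjusted p of 0.136 (Mef2a), 0.146 (Prox1) and 0.0977 (Gpr22). Mef2a was called in 3 of 9 fits that left out 1 heart (without normal replicate 4 or dysbiotic replicates 2 or 4), Prox1 in 4 (without normal replicate 1 or dysbiotic replicates 1, 3 or 5) and Gpr22 in 6 (not without normal replicate 2 or dysbiotic replicates 1 or 2).

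The largest rise on the scale of FPKM + 1 was that of Pirt, a regulator of the TRP channels of sensory nerves. It stood at 1.46, 0.991, 1.304 and 0.998 FPKM in the normal and at 2.19, 3.08, 2.03, 2.75 and 3.44 FPKM in the dysbiotic hearts. All dysbiotic values lay above all normal ones (0.75 ± 0.14, adjusted p = 0.00881). Of the 6 Schwann cell and neuron markers 1 passed the filter and none was called; their summed FPKM was 2.02 to 4.45 in the normal and 3.42 to 4.95 in the dysbiotic group, and its part in the Pirt result was not tested. Ccn5, a secreted CCN protein known to oppose fibrosis, was 1.44, 0.835, 0.819 and 0.891 FPKM in the normal and 1.74, 2.09, 3.63, 1.78 and 2.71 FPKM in the dysbiotic hearts. The groups were apart, with normal replicate 1 high in its own (0.74 ± 0.14, adjusted p = 0.00881; 0.0827 in the fit of males alone). It was the 1 gene called among 23 of profibrotic and CCN signalling; Ccn2, its profibrotic relative, was 42.0 ± 8.96 and 29.3 ± 8.54 FPKM (adjusted p = 0.214).

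Lonrf1, a RING finger protein with a LON substrate-binding domain, had the smallest p of the 10866 genes tested. It stood at 0.813, 0.749, 0.740 and 0.845 FPKM in the normal and at 1.71, 2.43, 1.63, 1.41 and 1.65 FPKM in the dysbiotic hearts, so that each dysbiotic heart exceeded every normal one (0.62 ± 0.07, adjusted p = 0.000968). Lrrc3b, a leucine-rich repeat membrane protein, stood at 4.46, 3.46, 4.90 and 3.90 FPKM and at 6.82, 7.34, 6.31, 6.00 and 7.98 FPKM, again without overlap (0.61 ± 0.11, adjusted p = 0.00580). Ier3, an immediate early gene of survival signalling, rose from 17.4 ± 2.49 to 26.5 ± 2.91 FPKM (0.58 ± 0.09, adjusted p = 0.00281), the 1 call among 20 tested immediate early genes. Pirt, Lonrf1, Lrrc3b and Ier3 were called in all 9 fits that left out 1 heart. Rises also passed for Tpst1, a protein tyrosine sulphotransferase, and for the small membrane protein gene Smim5, with log2 changes of 0.49 and 0.50; Tpst1 did not pass without normal replicate 3 (adjusted p = 0.0562), and Smim5 not without normal replicates 2, 3 or 4 or dysbiotic replicate 2 (0.0543 to 0.104). Falls of -0.90, -0.78 and -0.73 belonged to the α-arrestin gene Arrdc2 (adjusted p = 0.0118; 0.0513 without normal replicate 3), the potassium channel subunit gene Lrrc52 (adjusted p = 0.00249; 0.0579 in the fit of males alone) and Fam117b (adjusted p = 0.00249).

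Some of the deepest falls in males belonged to genes that rose in females, and the test of the difference between the sexes called them. Scand1, which encodes a small SCAN domain protein, stood at 6.92, 6.83, 5.19 and 2.62 FPKM in normal males and at 1.17, 0.243, 0.432, 0.456 and 1.96 FPKM in dysbiotic males, without overlap (-1.80 ± 0.41, adjusted p = 0.0358). In females it rose by 2.48 (adjusted p = 0.00285), from 0.506 ± 0.285 to 8.43 ± 4.38 FPKM, and the female minus male difference was 4.27 ± 0.56 (adjusted p = 0.00248). Hspb1, the small heat shock protein HSP27, stood at 145.7, 142.6, 136.8 and 80.5 FPKM in normal males and at 48.1, 32.6, 54.0, 29.8 and 86.8 FPKM in dysbiotic males. Dysbiotic replicate 5 exceeded normal replicate 4, so the groups overlapped (-1.38 ± 0.32, adjusted p = 0.0358). In females Hspb1 rose by 1.42 (adjusted p = 0.0165).

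Chchd10, a protein of the mitochondrial intermembrane space, stood at 163.4, 143.5, 153.5 and 146.2 FPKM in normal males and at 84.7, 48.3, 51.2, 53.6 and 144.2 FPKM in dysbiotic males. Dysbiotic replicate 5 again lay in the normal range (-1.11 ± 0.26, adjusted p = 0.0353; 1.37 in females). Cox11, which inserts copper into cytochrome c oxidase, had a change of -0.70 ± 0.17 (adjusted p = 0.0442) in males and 0.79 in females. Rgcc, a regulator of cell cycle progression, stood at 20.7, 33.9, 34.2 and 29.7 FPKM in normal males and at 15.9, 6.17, 7.18, 17.8 and 18.3 FPKM in dysbiotic males, without overlap (-1.22 ± 0.28, adjusted p = 0.0370). Its change in females, 0.48, did not pass (adjusted p = 0.474), nor did the difference between the sexes (adjusted p = 0.0895). These 5 calls were among the least stable: without normal replicate 2 the adjusted p was 0.136 for Scand1, 0.136 for Hspb1, 0.137 for Rgcc, 0.110 for Chchd10 and 0.148 for Cox11. Of 9 fits that left out 1 male heart, Scand1 was called in 2 (without normal replicate 4 or dysbiotic replicate 5), Hspb1 in 2 (the same hearts), Chchd10 in 2 (without dysbiotic replicate 1 or 5), Cox11 in 2 (the same as Chchd10) and Rgcc in 4 (not without normal replicates 2, 3 or 4 or dysbiotic replicates 2 or 3).

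The test of the difference between the sexes called 43 genes (0.396% of those tested), and in 41 of them the male change was the lower one. The group includes Nrtn, Zfp771, Imp3, Cited4, Fdx1, Nr2f6 and Jund, named after their values were seen. In Scand1, Hspb1, Chchd10 and Cox11 the normal males resembled the dysbiotic females in level, and most dysbiotic males resembled the normal females. Dysbiotic female replicate 1 lay between in these 4 genes, and normal male replicate 4 in Hspb1 and Scand1. Dysbiotic male replicate 5 lay between in Scand1 and Hspb1 and in the range of the normal males in Chchd10. In Cox11 it stood at 4.325 FPKM, just under the normal males, at 4.495 to 5.387 FPKM. Dysbiotic male replicate 1 exceeded every normal female in Cox11 (3.683 against up to 2.427 FPKM), Chchd10 (84.65 against up to 72.33) and Scand1 (1.166 against up to 0.8333). In Imp3, Fdx1 and Jund dysbiotic male replicate 5 exceeded every normal male, at 11.6, 7.24 and 16.2 FPKM against up to 11.3, 5.88 and 15.9 FPKM. Cebpd did not show this pattern: its dysbiotic males, at 1.12 to 1.77 FPKM, lay below the normal females, at 2.64 to 2.93 FPKM. Chchd10 was 56.3 to 72.3 FPKM in normal and 114.1 to 215.7 FPKM in dysbiotic females, and Hspb1 was 30.4 to 52.8 and 59.4 to 157.6 FPKM. The 43 genes had a median GC content of 56.1% and a median length of 1957 bases, against 50.1% and 3009 bases over all genes tested. Of the 43, 4 are predicted genes of 56 or 57 bases, such as Gm23935, and Hspb1 shares sequence with the pseudogene Hsp25-ps1 (-1.18 ± 0.28), so that the division of reads between these copies is uncertain. The labels give no preparation batch, so a batch that follows the 4 groups cannot be told apart from sex and microbiome. The number of genes called was 102 without dysbiotic male replicate 5, and 24, 25, 27 and 28 without normal male replicates 2 and 3 and dysbiotic male replicates 3 and 4.

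**Figure D4:**
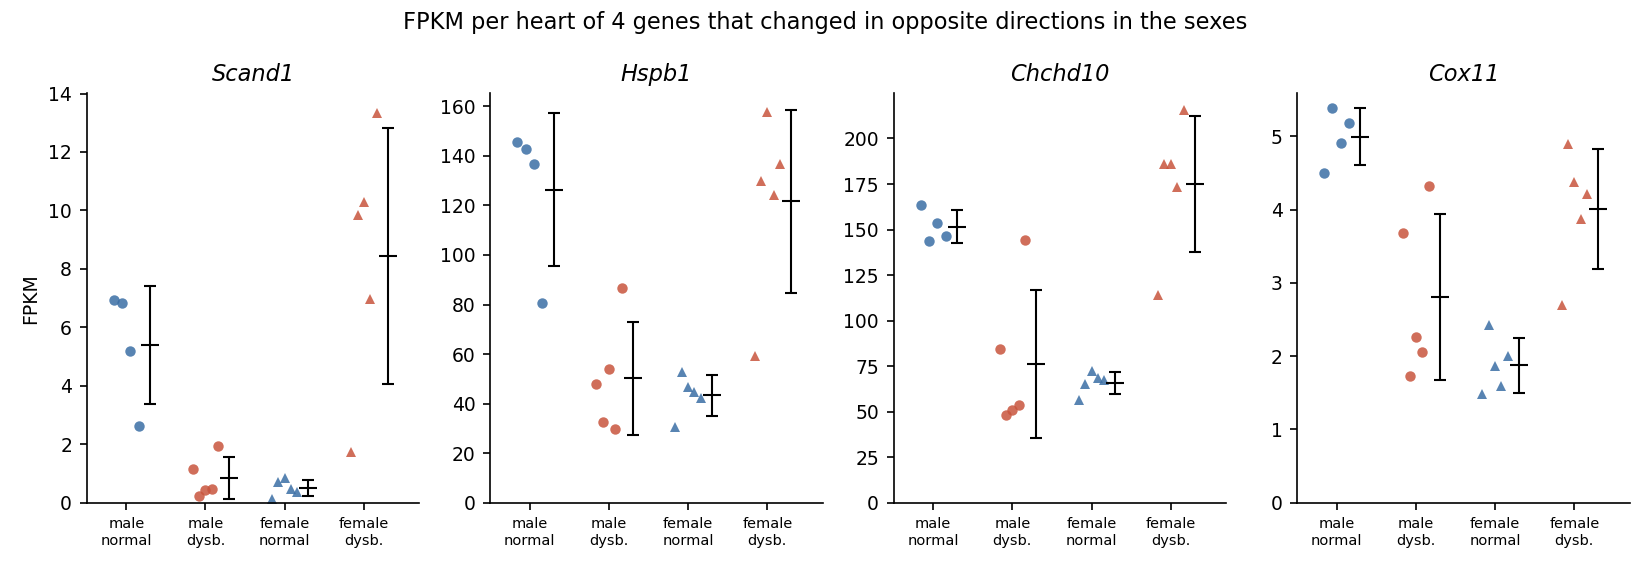
Each point is the FPKM of 1 heart, circles for males and triangles for females, blue for normal and red for dysbiotic; bars are the group's mean ± SD. In all 4 genes most normal males and dysbiotic females are high and most dysbiotic males and normal females low. Dysbiotic male replicate 5 and dysbiotic female replicate 1 depart from this, as does normal male replicate 4 in Hspb1 and Scand1. Dysbiotic male replicate 1 lies above the normal females in Cox11, Chchd10 and Scand1.

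Most male changes had the same direction in females. Of the 207 genes called in males 184 (88.9%) had the same sign in females, against 58.0% of all genes tested, and 72 of them (34 higher, 38 lower) were also called in females, where 2.84% of all genes were called. The male and female contrasts share no heart, although they share the estimate of spread. Nr1d1, Ppargc1a, Sesn1, Trim63, Chac1, Bhlhe40, Pirt, Lrrc3b, Lonrf1, Irx4, Cacnb2 and Per3 were called in both sexes in the same direction. In all, 9 genes were called in both with opposite signs. Mef2c, Ccn5, Ier3, Rnf144b and Fam107a were called in males and not in females, and their difference between the sexes did not pass (adjusted p 0.349 to 0.737). For Cebpd, Sema6b, D030056L22Rik, Lnx2 and Coq10b, likewise called in males and not in females, the difference passed (adjusted p 0.0165 to 0.0404).

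**Figure D5:**
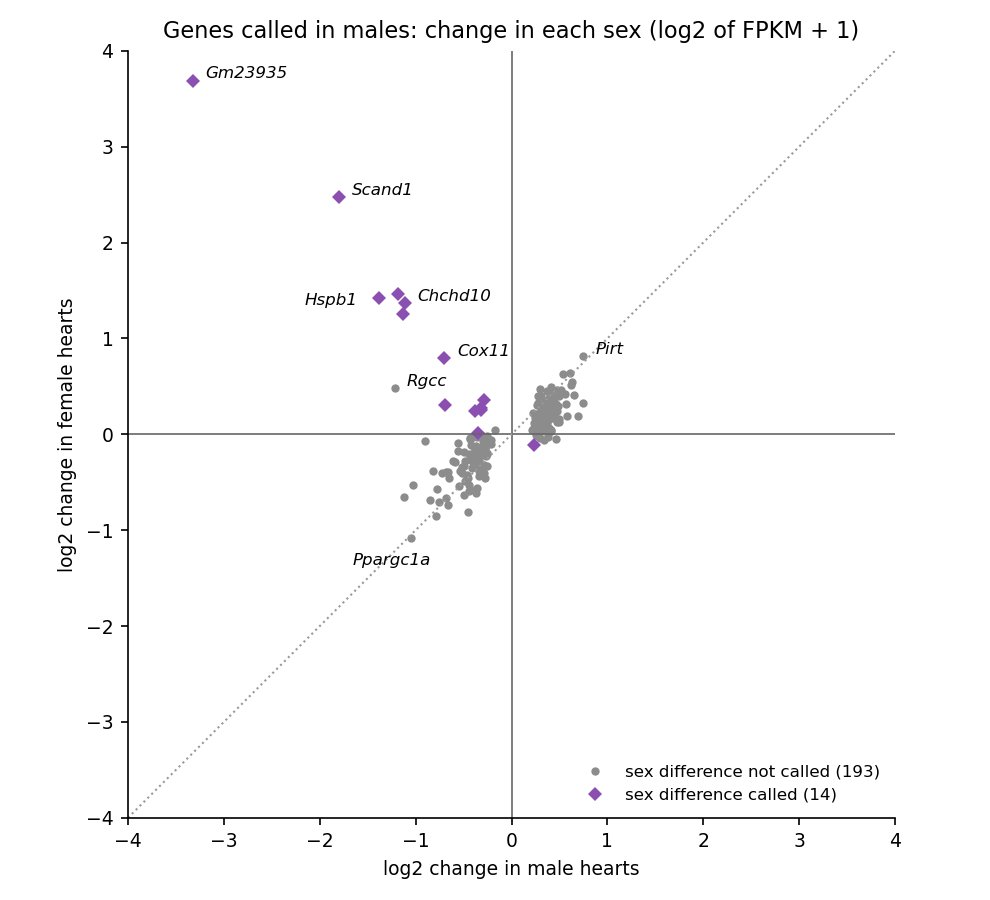
Each point is 1 of the 207 genes called in males, with its log2 change (FPKM + 1, dysbiotic minus normal) in males on the horizontal and in females on the vertical axis; the dotted line marks equal change. Most points lie in the quadrants of equal sign, and the purple diamonds (14 genes whose change differed between the sexes) run into the upper left.

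Of 21 tested genes of inflammation and microbial sensing 2 fell, against 0.948% of all genes tested, and 0 rose (1 under median-ratio scaling). Cyp1b1 and Tiparp are both known targets of the aryl hydrocarbon receptor, which senses microbial tryptophan metabolites among other ligands. Cyp1b1 fell from 2.55 ± 0.44 to 1.35 ± 0.11 FPKM (-0.59 ± 0.08, adjusted p = 0.00249), and Tiparp from 3.15 ± 0.40 to 2.40 ± 0.15 FPKM (-0.28 ± 0.06, adjusted p = 0.0165; 0.0835 and 0.0732 without normal replicates 2 and 3). Of 32 listed genes 11 lay below the filter, Il6, Il1b, Tnf and Cyp1a1 among them. These were not tested in the main fit, and the values given here were picked after they were seen. Il1b was 0.0774 to 0.130 FPKM in the normal and 0.166 to 0.430 FPKM in the dysbiotic males, without overlap. Mean Cxcl1 was 0.28 and 0.54 FPKM, whereas Il6ra was 0.64 and 0.47 FPKM and Cyp1a1 0.15 and 0.14 FPKM. Of 27 tested interferon and antigen presentation genes 0 were called. Ciita lay below the filter and is likewise named because its values were seen. It was 0.0250 to 0.0342 FPKM in the normal and 0.0467 to 0.104 FPKM in the dysbiotic males, without overlap. Mean Ifi44, also below the filter, was 0.35 FPKM in both groups. Of 36 matrix and collagen genes 1 fell, Col5a3, from 1.91 ± 0.25 to 1.37 ± 0.27 FPKM (adjusted p = 0.0476), and the median change was -0.047, which became 0.015 without normal replicate 1. Col5a3 was called in 2 of 9 fits that left out 1 heart, those without normal replicate 4 or dysbiotic replicate 5 (adjusted p 0.0571 to 0.186 in the others).

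Among cell type markers 3 were called. Emcn, an endothelial sialomucin, rose from 5.38 ± 0.83 to 6.997 ± 0.34 FPKM (adjusted p = 0.0180), 1 of 8 endothelial markers. Lyve1, a marker of resident macrophages and lymphatic vessels, fell from 14.1 ± 2.89 to 9.84 ± 0.79 FPKM (adjusted p = 0.0358), 1 of 7 tested macrophage markers. Upk3b, a mesothelial gene, fell from 1.84 ± 0.21 to 0.939 ± 0.27 FPKM (adjusted p = 0.0442), and the summed mesothelial markers were 3.31 to 4.49 FPKM in normal and 1.77 to 3.45 FPKM in dysbiotic hearts. Emcn was not called without normal replicates 2 or 4 (0.0855 and 0.0617). Lyve1 was called without normal replicate 4 or dysbiotic replicate 4 and Upk3b without dysbiotic replicate 4, and neither in the other fits that left out 1 heart (adjusted p up to 0.140 and 0.144). T and NK cell markers (0 of 10) and neutrophil markers (0 of 5 in the table) did not reach the filter. Among Y-linked genes Eif2s3y, a translation factor subunit, fell from 8.38 ± 1.53 to 6.26 ± 0.84 FPKM (adjusted p = 0.0393), and its groups overlapped; it was not called without normal replicates 2 or 3 or dysbiotic replicates 1 or 2 (0.0873 to 0.176).

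In several large groups no gene was called and most changes were positive, as were those of 6385 of the 10866 genes tested (5368 under median-ratio scaling). The 36 cytosolic ribosomal protein genes had 35 positive changes (35 under median-ratio scaling) and a median of 0.16, which was 0.094 to 0.21 when 1 male heart was left out. The 29 sarcomere and Z-disc genes had 24 positive changes (24) and a median of 0.12, which was 0.045 without normal replicate 1 and dysbiotic replicate 5. The 18 cardiac stress and fetal genes had 15 positive changes (14) and a median of 0.22, which was 0.091 without dysbiotic replicate 3. Their best-known members did not pass: Myh7, the slow myosin of the stressed ventricle, was 83.0 ± 5.10 and 92.0 ± 10.02 FPKM, and Ankrd1, a stretch-responsive gene, was 253.8 ± 56.1 and 338.8 ± 173.2 FPKM. Antioxidant genes (0 of 27), genes around BCL11B with the TET, DNMT and NuRD proteins (0 of 24) and chaperones other than Hspb1 (0 of 21) were not called; median-ratio scaling called 1 lower in the BCL11B group, and 1 lower beside the 1 rise among cardiac receptors and among profibrotic genes. Genes of 1 complex or cell type vary together between hearts, so these sign counts are not independent tests.

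Bcl11b, a zinc finger repressor best known from T lymphocytes and neurons, lies on chromosome 12 (107910403 to 108003602, minus strand, GRCm38) and was below the expression filter. It stood at 0.0469, 0.0456, 0.0585 and 0.0834 FPKM in the normal males and at 0.103, 0.146, 0.126, 0.105 and 0.134 FPKM in the dysbiotic males. Every dysbiotic heart exceeded every normal one, at levels far under the filter. The mean log2 FPKM differed by 1.10 ± 0.21 (SE), or 2.14-fold, and the exact permutation test over all divisions of the 9 hearts into 4 and 5 gave p = 0.00794, the smallest it can give. Bcl11b was chosen because the study's title names it, so this unadjusted p is no independent evidence. Groups without overlap were also seen in 511 of the 10866 genes tested (4.7%). Summed T and NK cell markers were 0.361 to 0.546 FPKM in the normal and 0.540 to 0.879 FPKM in the dysbiotic hearts, so they moved in the same direction, and their part in the Bcl11b difference was not tested. Tet1, a DNA demethylase, was 0.0480 ± 0.0118 and 0.0999 ± 0.0215 FPKM and is named because its values were seen; in the fit without a filter it did not pass (adjusted p = 0.118), nor did Bcl11b (adjusted p = 0.0871).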

How the data were processed

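Poly(A) RNA of 19 mouse hearts was sequenced. The submitters' processing notes name the tools as DESeq2, StringTie 1.3.4d, HISAT2 2.0.4 and cutadapt 1.9, and the build as hg38 although the identifiers are mouse Ensembl IDs (99.7% found in GENCODE M21, GRCm38, whose coordinates are given). The authors deposited FPKM per gene and heart, 29726 genes; the fold changes and p-values they deposited pool the sexes and were not used. No counts were recovered: 19.9% to 23.1% of low values in male hearts were whole reads within 0.02.

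Groups follow the labels. log2(FPKM + 1) was fitted with limma 3.58.1 (trend, robust empirical Bayes, R 4.3.3), 1 mean per group over all 19 hearts. Contrasts were dysbiotic minus normal in males and the female minus male difference, two-sided, threshold 0.05. Tests on simulated data for the male contrast used 10866 genes, 200 of them changed by 0.5 on the log2 scale. Of the 200, 89% were recovered, with 9 false calls. Both figures belong to the simulated data only. Recovery and false calls in the real hearts, where the number of calls depended on single hearts, were not tested. A pseudocount of 1 shrinks changes of genes near 1 FPKM. Each mouse was treated as independent, since the labels give no cage or batch; if samples are not separate cages, p-values measure only the spread between these hearts.

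The text names the 15 largest rises and falls among called genes averaging 1 FPKM or more whose symbol is not that of a predicted gene, up to 3 called genes of each list, and Bcl11b (exact permutation of log2 FPKM). The comparison, lists and motifs were chosen with earlier results of these data known, so no list is independent evidence. Motifs were searched 250 bases upstream of RefSeq starts. Alternatives covered scaling, filter, pseudocount, GC, array weights, the replicate number as a block and leaving out each male heart; 2 liver-related ones were added after seeing the data. Python 3.11.15 and matplotlib 3.10.9 drew the figures.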

Additional observations from a re-analysis of the deposited data

Results flagged for a closer look

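In groups of 4 or 5 male hearts, 14 of 132 groups of values had 1 heart far from the others by Dixon's test, which chance gives in about 1 group in 20. Gene values of this kind were Ccn5 in normal replicate 1 (1.44 FPKM, against 0.819 to 0.891 in the others), Hspb1 in normal replicate 4 (80.5, against 136.8 to 145.7), Bhlhe40 in normal replicate 4 (12.8, against 13.5 to 13.6), Slc25a42 in normal replicate 1 (7.33, against 5.79 to 5.99), Cdkn1a in dysbiotic replicate 3 (15.4, against 9.23 to 10.4), Cyp1b1 in dysbiotic replicate 1 (1.53, against 1.28 to 1.35) and Tiparp in dysbiotic replicate 5 (2.13, against 2.45 to 2.51).

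Sums of cell type markers stood apart in 3 hearts. Dysbiotic replicate 5 was high in cardiomyocyte markers (17165.5 FPKM, against 12895.8 to 14105.9) and skeletal muscle markers (657.3, against 526.4 to 562.5) and low in liver markers (12.2, against 331.3 to 389.0). Dysbiotic replicate 3 was high in atrial markers (4242.3, against 2083.2 to 2629.9), macrophage markers (53.6, against 48.3 to 49.7) and B and plasma cell markers (17.9, against 3.18 to 5.98). Normal replicate 1 was high in endothelial markers (199.9, against 185.0 to 186.0).

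Among the 50 genes named by rule for the male comparison, 4 responded differently in the 2 sexes by the test of the difference (limma, adjusted p 0.00248 to 0.00570). The female minus male difference in log2 change was 4.27 for Scand1, 2.80 for Hspb1, 2.48 for Chchd10 and 1.495 for Cox11.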

How the results depend on the processing

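The counts of calls moved most. Against 104 higher and 103 lower, the fit of the 9 male hearts alone gave 22 and 47, no expression filter 45 and 52, and leaving out 1 male heart 30 to 172 and 30 to 106; median-ratio scaling gave 173 lower. The replicate number as a block gave 47 and 59. Of the other alternatives, scaling by upper quartile gave 135 and 153, GC correction 148 and 142, a pseudocount of 0.1 gave 113 and 101, and the liver covariate, added after seeing the data, 116 and 111. The 43 genes that differed between the sexes became 22 without a filter, 85 with array weights, 86 without the male hearts highest and lowest in liver transcripts, and 24 to 102 when 1 male heart was left out. The causes were not tested. Median-ratio scaling moved the median change of all genes from 0.021 to -0.0016, and upper-quartile scaling to 0.0064. Of 1098 alternative values for 50 named genes, 892 kept direction and call, 206 kept the direction without passing and 0 reversed; 17 genes were called under all alternatives run. The Bcl11b difference was 0.97 to 1.28 on the log2 scale over its 11 alternatives, with an exact permutation p of 0.00794 to 0.0286. Same-numbered male hearts deviated together with r of 0.46, -0.17, -0.079 and -0.032, and differently numbered ones with r of -0.57 to 0.46. These few values show no steady pairing by number. A batch shared by number was allowed for only in the fit with the replicate number as a block. That fit gave 47 higher and 59 lower, and 15 of the 50 named genes lost their call. With the replicate number as a block 36 genes differed between the sexes. With 4 and 5 hearts and no read counts, changes under 0.17 were not called, and depth could not be turned into counting intervals.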

Other observations

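Beyond the lists, 2 sets of called genes, picked after their values were seen, share a family or a tissue. The Ifi200 genes, a cluster on chromosome 1 that encodes interferon-inducible DNA sensors of the PYHIN family, gave 4 falls and 0 rises among 6 tested members: Ifi211 (from 6.87 ± 0.79 to 4.48 ± 0.39 FPKM), Ifi205 (6.75 ± 0.48 to 4.56 ± 0.65), Ifi207 (3.60 ± 0.54 to 2.40 ± 0.26) and Ifi204 (2.14 ± 0.14 to 1.45 ± 0.18), with limma adjusted p from 0.00605 to 0.0497. Mndal and Ifi203 of the same cluster were higher in value and did not pass. Over all genes tested 0.948% fell and 0.957% rose. Family members are similar in sequence, so the division of reads among them is uncertain. Ifi204 was called in all 9 fits that left out 1 male heart, Ifi205 in 2. In females the 4 changes were -0.35 to -0.052 and their difference from the male changes did not pass (adjusted p 0.344 to 0.865). Of 8 tested guanylate-binding protein genes, another interferon-inducible family, 1 fell (Gbp6, from 7.70 ± 0.96 to 5.65 ± 0.41 FPKM) and 0 rose.

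Genes known from blood vessels were among the rises: Nrp1, a co-receptor for VEGF (3.52 ± 0.33 to 5.17 ± 0.50 FPKM, adjusted p = 0.00580), Meox2, an endothelial transcription factor (4.50 ± 0.52 to 6.59 ± 0.85, adjusted p = 0.0122), Ackr3, a chemokine scavenger (12.1 ± 0.96 to 16.2 ± 2.12, adjusted p = 0.0205), Vegfc, a lymphatic growth factor (1.12 ± 0.18 to 1.79 ± 0.31, adjusted p = 0.0397), and Lrrc32, Ushbp1, Tmem88, Bcl6b and S1pr3. Nrp1 and Lrrc32 were called in all 9 fits that left out 1 heart, and Bcl6b in 1. They were chosen because they rose, so their number is no test of a change in vessels; the sum of the 8 endothelial markers was 185.0 to 199.9 FPKM in the normal and 191.2 to 238.5 FPKM in the dysbiotic hearts, and its part in these rises was not tested.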
